A study of Mus musculus with 6 samples.

Results

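Pecam1, Cdh5, Kdr, Flt1, Tek, Tie1, Vwf, Emcn, Eng and Plvap are markers of the endothelial cells that line blood vessels. They were chosen by gene symbol among the 55450 genes of the deposited tables, and each of the 10 symbols named a single gene. RNA was sequenced from subcutaneous flank tumours of C57BL/6 mice, grown from MTE-Ras, a cancer line of mouse tracheal epithelial cells that carry a transforming RAS mutation. PV-10, a solution of rose bengal, was given into the lesion in the mice of 3 tumours, and phosphate-buffered saline (PBS) in the mice of the other 3. The labels give no dose, no time of collection and no age or sex of the mice, and the same line formed every tumour. Host and tumour cells are both of mouse origin, so reads from host vessels were not separated from reads of tumour cells.

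Endothelial cells sense vascular endothelial growth factor (VEGF) through the receptor tyrosine kinases VEGFR2 (Kdr) and VEGFR1 (Flt1), and angiopoietins through TIE2 (Tek), which works with the orphan receptor TIE1 (Tie1). They hold to each other through VE-cadherin (Cdh5) and PECAM-1 (Pecam1), store von Willebrand factor (Vwf) for clotting, and carry the sialomucin endomucin (Emcn), the TGF-beta co-receptor endoglin (Eng) and PLVAP (Plvap), which builds the diaphragms of fenestrae and caveolae. Several of these genes are also active outside endothelium: Pecam1 and Vwf in platelets, Pecam1 in leukocytes and Eng in stromal cells and activated macrophages.

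Total gene counts ran from 36730318 to 94203331 in the PV-10 tumours and from 87386266 to 98717951 in the PBS tumours, and the markers had between 174 and 21574 counts in each tumour. Genes with any count numbered 35314, 28343 and 22764 in PV-10 tumours 1, 2 and 3 and 19163, 22895 and 23068 in PBS tumours 1, 2 and 3. The edgeR test called 11399 genes without PV-10 tumour 3, against 1122 with all 6 tumours, so results are given with and without that tumour where it decides them. Longer transcripts were lower in PV-10 libraries: among 11110 genes with a mean log2 CPM (counts scaled to library size) of at least 2, the slope of log2 CPM with each doubling of effective length ran from -0.34 to -0.05 in PV-10 tumours and from 0.16 to 0.29 in PBS tumours. Among epithelial markers, Epcam and the basal keratin gene Krt5 reached at most 0.54 and 0.25 TPM (a level scaled for transcript length and library total) in any tumour. The simple epithelial keratin gene Krt18 was at 97.4, 111 and 170 TPM in PV-10 tumours and at 210, 181 and 219 TPM in PBS tumours. Its log2 change in the edgeR test was 0.05 (adjusted p = 0.910), and its CPM overlapped between groups. Krt8 was at 36.2, 42.1 and 91.7 TPM in PV-10 tumours and at 155, 129 and 164 TPM in PBS tumours (log2 change -0.71, edgeR adjusted p = 0.175). Of 8 epithelial genes tested none was called, where 5.09% of all tested genes were. Their log2 change was positive for 6 and negative for 2, with a median of 0.49.

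The sequence before the transcription start is shown for Flt1, Kdr, Tek and Emcn, because among the 6 markers with a RefSeq promoter entry (these, Tie1 and Eng) they include the lowest and the 2 highest changes. Windows are from RefSeq on build GRCm38.p6, end before the gene's start in both RefSeq and Gencode, and read 5′ to 3′ on the gene's own strand, with CG dinucleotides in capitals.
Flt1 (chr5:147726012-147726261, minus strand): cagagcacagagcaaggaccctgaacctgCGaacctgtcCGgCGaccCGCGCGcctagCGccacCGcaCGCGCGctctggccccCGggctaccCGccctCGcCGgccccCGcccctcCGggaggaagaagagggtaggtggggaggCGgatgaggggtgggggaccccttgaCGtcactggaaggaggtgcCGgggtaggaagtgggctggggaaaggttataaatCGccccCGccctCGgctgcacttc
Kdr (chr5:75978459-75978705, minus strand): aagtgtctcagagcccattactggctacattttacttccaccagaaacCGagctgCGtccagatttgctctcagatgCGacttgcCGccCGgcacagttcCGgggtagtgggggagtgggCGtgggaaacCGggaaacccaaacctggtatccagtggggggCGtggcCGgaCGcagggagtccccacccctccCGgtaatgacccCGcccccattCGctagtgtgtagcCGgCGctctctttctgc
Tek (chr4:94739039-94739288, plus strand): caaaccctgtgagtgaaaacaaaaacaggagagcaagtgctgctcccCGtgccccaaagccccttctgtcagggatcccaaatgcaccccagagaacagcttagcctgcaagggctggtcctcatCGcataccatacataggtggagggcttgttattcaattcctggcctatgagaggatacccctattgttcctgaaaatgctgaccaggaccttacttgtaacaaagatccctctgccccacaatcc
Emcn (chr3:137340828-137341066, plus strand): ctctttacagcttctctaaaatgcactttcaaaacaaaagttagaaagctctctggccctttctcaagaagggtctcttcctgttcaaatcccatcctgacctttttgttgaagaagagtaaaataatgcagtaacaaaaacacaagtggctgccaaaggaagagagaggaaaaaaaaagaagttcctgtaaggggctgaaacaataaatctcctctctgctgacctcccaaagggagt
The 250 bases before the RefSeq start held 23 CG dinucleotides in Flt1, 16 in Kdr, 6 in Tie1, 4 in Eng, 2 in Tek and 1 in Emcn, against a median of 6 over 32851 promoters. CAGGAAG, a form of the binding motif of ETS factors, which drive many endothelial genes, was found in Emcn, read on the opposite strand, and in 10.8% of all promoters of this length. TATAAA was found in Flt1 and in 12.4% of all promoters. Another ETS form, CCGGAAG, was found on neither strand of the 6 windows and in 6.91% of all promoters. The same held for AGATAA, with a match in 9.99% of all promoters. The motifs searched do not overlap each other in these windows, and a match shows letters only, not a bound factor.

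The summed level of the 10 markers was 31.6, 22.6 and 105 TPM in PV-10 tumours 1, 2 and 3, against 68.5, 198 and 163 TPM in PBS tumours 1, 2 and 3. PV-10 tumours 1 and 2 were lower than every PBS tumour, while PV-10 tumour 3 lay above PBS tumour 1, so the groups overlapped. The mean of the PV-10 tumours was 0.371 times that of the PBS tumours, at 53.0 ± 45.1 TPM in PV-10 tumours and 143 ± 66.8 TPM in PBS tumours (SD, n = 3 each). The 10 genes with the highest TPM took 63.5%, 61.0% and 52.1% of the total in PV-10 tumours and 54.2%, 45.3% and 51.2% in PBS tumours. On log2(TPM + 1) the median change of all tested genes was -0.21. The part of this makeup of the libraries in the summed level was not tested. Fewer endothelial cells and less of these RNAs per cell cannot be told apart in bulk tumour RNA. On the scale of TMM-scaled CPM the sums were 205, 171 and 543 CPM in PV-10 tumours and 326, 694 and 632 CPM in PBS tumours.

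None of the 10 markers was called (edgeR quasi-likelihood test, adjusted p under 0.05), where 5.09% of 22056 tested genes were called in either direction and 1.92% were called lower. Kdr and Flt1 alone had an unadjusted p under 0.05, both lower, as did 30% of all tested genes in either direction and 14.5% in that direction. The log2 change was negative for 8 of the 10 markers and for 41.5% of all tested genes, and its median was -0.84 over the markers and 0.30 over all tested genes. With each library's trend with effective length removed, the medians were -0.33 and 0.39, and 7 of the 10 markers had a negative log2 change. In the alternatives the markers called were all lower in PV-10 tumours. DESeq2 called 1 marker, Flt1, where it called 10.2% of 22008 genes lower. Limma on log2(TPM + 1) and on log2(TPM + 0.1) called Flt1, Plvap and Kdr, where 17.2% and 16.2% of genes were called lower. With no low-count filter edgeR called Flt1, Plvap, Vwf, Cdh5 and Eng, where 6.7% of 39195 genes were called lower. Without PV-10 tumour 3 edgeR called 7 markers lower, namely Cdh5, Plvap, Pecam1, Flt1, Eng, Tie1 and Kdr, where 16.4% of 27510 genes were called lower. Leaving out any other tumour called no marker and 1 to 5 genes in all. In those fits 0 to 5 markers had an unadjusted p under 0.05, as did 4614 to 6851 genes in all, of 22750 to 28118 tested.

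**Figure D1:**
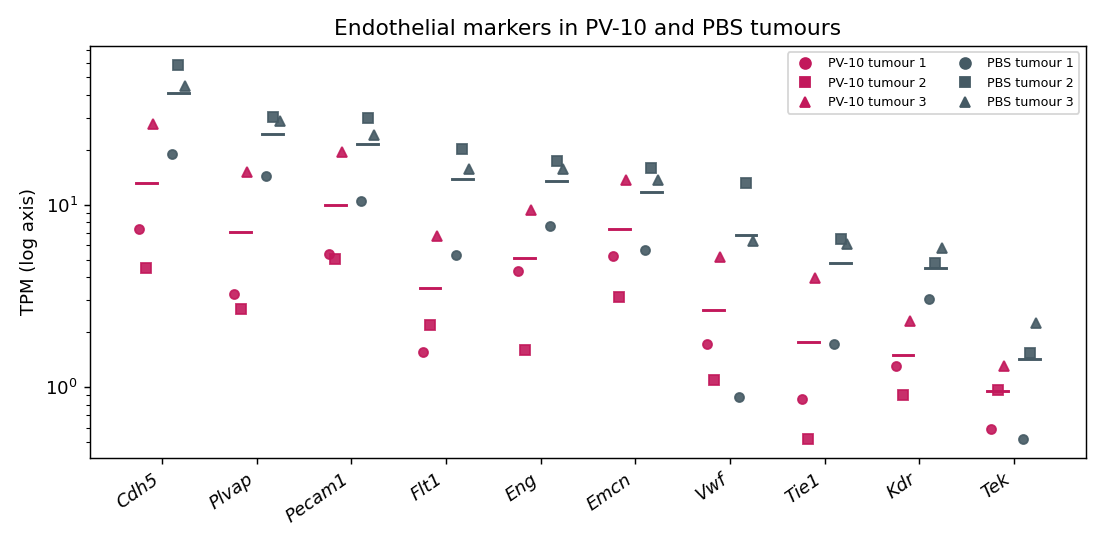
TPM on a log axis for each marker, with PV-10 tumours left of PBS tumours. Points are tumours and short lines are group means. PV-10 tumour 3 lay above PV-10 tumours 1 and 2 for every marker, and PBS tumour 1 was the lowest PBS tumour for every marker.

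Among the VEGF receptors, Flt1 (ENSMUSG00000029648.13, mm10 chromosome 5, 147561604 to 147726011), a high-affinity VEGF receptor with a weak kinase whose soluble form traps the ligand, was at 1.55, 2.20 and 6.70 TPM in PV-10 tumours 1, 2 and 3 and at 5.31, 20.2 and 15.8 TPM in PBS tumours 1, 2 and 3. PV-10 tumour 3 lay just above PBS tumour 1, and the other PV-10 tumours were lower than all PBS tumours. Its CPM averaged 37.8 ± 19.6 in PV-10 tumours and 93.8 ± 39.0 in PBS tumours, a log2 change of -1.31 (95% interval -2.32 to -0.31, edgeR adjusted p = 0.0863). With each library's trend with effective length removed, the log2 change was -0.45 (edgeR adjusted p = 0.349). Gene totals do not separate the soluble from the membrane form.

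Kdr (ENSMUSG00000062960.10, mm10 chromosome 5, 75932827 to 75978458), the main signalling receptor for VEGF, was at 1.3, 0.90 and 2.31 TPM in PV-10 tumours and at 3.02, 4.77 and 5.75 TPM in PBS tumours. It was the only marker whose groups did not overlap, with all PV-10 tumours below all PBS tumours, which held for 31% of tested genes in TPM and 16.8% in CPM. The gap was narrow in CPM, with 20.4 CPM in PV-10 tumour 3 and 20.6 CPM in PBS tumour 1. No marker had all PV-10 tumours above all PBS tumours, which held for 9.58% of tested genes in TPM and 22% in CPM. The log2 change was -0.81 (95% interval -1.54 to -0.07, edgeR adjusted p = 0.134), and it became 0.05 with each library's trend with effective length removed.

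The TIE receptors were, with Kdr, the least abundant markers by mean TPM. Tek (ENSMUSG00000006386.15, mm10 chromosome 4, 94739289 to 94874976) was at 0.59, 0.96 and 1.31 TPM in PV-10 tumours and at 0.52, 1.53 and 2.24 TPM in PBS tumours. The groups overlapped fully, and the direction depended on the scale, with a log2 change of 0.20 in the count test (95% interval -0.77 to 1.17, edgeR adjusted p = 0.781) and of -0.26 on log2(TPM + 1). Tie1 (ENSMUSG00000033191.14, mm10 chromosome 4, 118471191 to 118490061) was at 0.86, 0.52 and 3.94 TPM in PV-10 tumours and at 1.72, 6.48 and 6.07 TPM in PBS tumours. PV-10 tumours 1 and 2 were lower than every PBS tumour and PV-10 tumour 3 was higher than PBS tumour 1, and the log2 change was -0.74 (95% interval -2.10 to 0.61, edgeR adjusted p = 0.431).

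Of the junction genes, Cdh5 (ENSMUSG00000031871.9, mm10 chromosome 8, 104101625 to 104144511) was the most abundant marker, at 7.35, 4.51 and 27.6 TPM in PV-10 tumours and at 19.0, 58.4 and 44.5 TPM in PBS tumours. It ranked first among the markers in every tumour but PV-10 tumour 2, where Pecam1 ranked first. Its CPM averaged 88.1 ± 74.5 in PV-10 tumours and 173 ± 61.7 in PBS tumours, with a log2 change of -0.97 (95% interval -2.21 to 0.26, edgeR adjusted p = 0.266). Pecam1 (ENSMUSG00000020717.19, mm10 chromosome 11, 106654217 to 106750628) was at 5.37, 5.01 and 19.5 TPM in PV-10 tumours and at 10.4, 29.6 and 24.1 TPM in PBS tumours. In CPM, PV-10 tumour 3 had the highest Pecam1 value of all 6 tumours, and the log2 change was -0.40 (95% interval -1.40 to 0.59, edgeR adjusted p = 0.565).

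Plvap (ENSMUSG00000034845.6, mm10 chromosome 8, 71497765 to 71511752) was at 3.23, 2.69 and 15.2 TPM in PV-10 tumours and at 14.4, 30.1 and 28.7 TPM in PBS tumours. Only PV-10 tumour 3 reached the lowest PBS tumour. Its CPM averaged 23.5 ± 19.0 in PV-10 tumours and 51.3 ± 12.4 in PBS tumours, with a log2 change of -1.12 (95% interval -2.26 to 0.01, edgeR adjusted p = 0.17). With the length trend removed it kept a log2 change of -1.03 (edgeR adjusted p = 0.120), the lowest of the 10 markers in that setting.

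Eng (ENSMUSG00000026814.16, mm10 chromosome 2, 32646595 to 32682669) was at 4.34, 1.6 and 9.34 TPM in PV-10 tumours and at 7.59, 17.4 and 15.6 TPM in PBS tumours, with a log2 change of -0.87 (95% interval -1.96 to 0.21, edgeR adjusted p = 0.257). Vwf (ENSMUSG00000001930.17, mm10 chromosome 6, 125546774 to 125686679) was at 1.73, 1.10 and 5.14 TPM in PV-10 tumours and at 0.88, 13.1 and 6.34 TPM in PBS tumours. Vwf was the marker that differed most among PBS tumours, 14.9-fold in TPM between the highest and the lowest, and in TPM PBS tumour 1 was below every PV-10 tumour. Its log2 change of -1.14 had the widest interval of the 10 (95% interval -2.58 to 0.31, edgeR adjusted p = 0.268), and the log2 change was -0.37 without PBS tumour 2.

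Emcn (ENSMUSG00000054690.17, mm10 chromosome 3, 137341067 to 137432185), typical of venous and capillary endothelium, was at 5.26, 3.12 and 13.7 TPM in PV-10 tumours and at 5.62, 16.0 and 13.7 TPM in PBS tumours. Its groups overlapped, with PV-10 tumour 3 level with PBS tumour 3 in TPM. In CPM it averaged 21.8 ± 12.5 in PV-10 tumours and 18.4 ± 6.18 in PBS tumours, a log2 change of 0.24 (95% interval -0.73 to 1.22, edgeR adjusted p = 0.731), which was -0.71 on log2(TPM + 1).

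**Figure D2:**
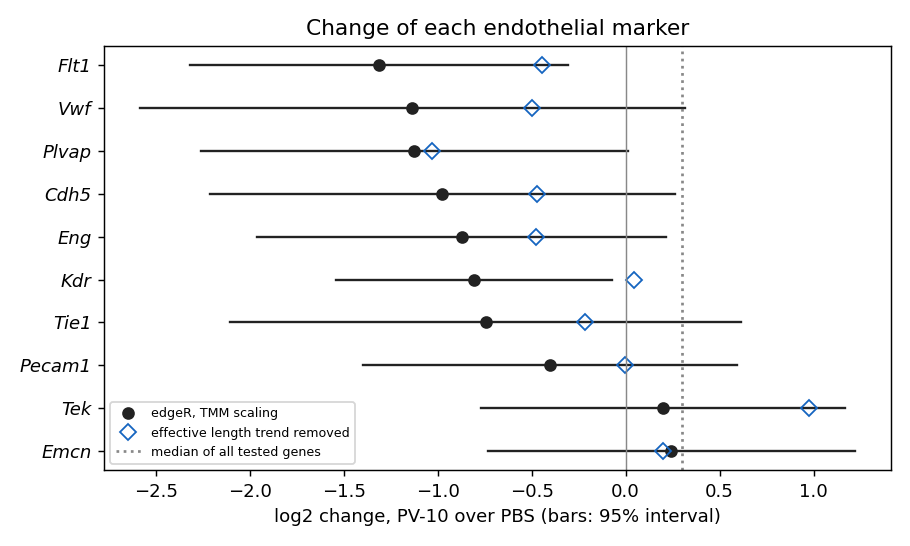
The log2 change of each marker, PV-10 over PBS, with bars for the 95% interval of the edgeR fit and open diamonds for the change with the effective length trend removed. The dotted line marks the median of all tested genes, 0.30, and Flt1 lies lowest at -1.31 while Emcn lies highest at 0.24, though below 0 on log2(TPM + 1).

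The order of the markers by mean TPM in PV-10 tumours was Cdh5, Pecam1, Emcn, Plvap, Eng, Flt1, Vwf, Tie1, Kdr and Tek. In PBS tumours it was Cdh5, Plvap, Pecam1, Flt1, Eng, Emcn, Vwf, Tie1, Kdr and Tek. All neighbours in the order of the PV-10 tumours had ranges over tumours that overlapped, and in the PBS tumours only Kdr and Tek did not. Within tumours the order could be steadier than the ranges: Plvap ranked above Pecam1, and Pecam1 above Flt1, in 3 of 3 PBS tumours.

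The makeup of the endothelial signal within a tumour does not depend on how libraries are scaled to each other. It can still shift with the trend in effective length, which differed between libraries, and shares were not calculated with that trend removed. Emcn and Plvap have the shortest effective lengths of the 10 markers. With the trend removed the log2 changes were 0.20 for Emcn, -0.001 for Pecam1, -0.47 for Cdh5 and -1.03 for Plvap. Emcn took 16.7%, 13.8% and 13.1% of the summed TPM of the 10 markers in PV-10 tumours 1, 2 and 3, against 8.20%, 8.07% and 8.40% in PBS tumours 1, 2 and 3. The share hardly varied among PBS tumours, although their summed level differed 2.89-fold, and all PV-10 tumours, including PV-10 tumour 3, lay above all PBS tumours. Pecam1 took 17.0%, 22.2% and 18.6% in PV-10 tumours and 15.2%, 15.0% and 14.8% in PBS tumours, again with all PV-10 tumours above.

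Plvap took 10.2%, 11.9% and 14.5% in PV-10 tumours and 21.0%, 15.2% and 17.7% in PBS tumours, and Cdh5 took 23.3%, 19.9% and 26.4% in PV-10 tumours and 27.8%, 29.6% and 27.3% in PBS tumours. For both genes, all PV-10 tumours lay below all PBS tumours. For each of these 4 markers the exact two-sided permutation p was 0.1, the smallest that 3 against 3 tumours can give, and 0.25 after adjustment over the 10 markers. The other 6 markers had shares that overlapped between groups (exact permutation p from 0.2 to 1). In shares of summed CPM, Emcn (9.28%, 6.40% and 6.53% in PV-10 tumours, 3.55%, 3.40% and 3.18% in PBS tumours) and Pecam1 kept groups that did not overlap, while Plvap and Cdh5 overlapped.

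**Figure D3:**
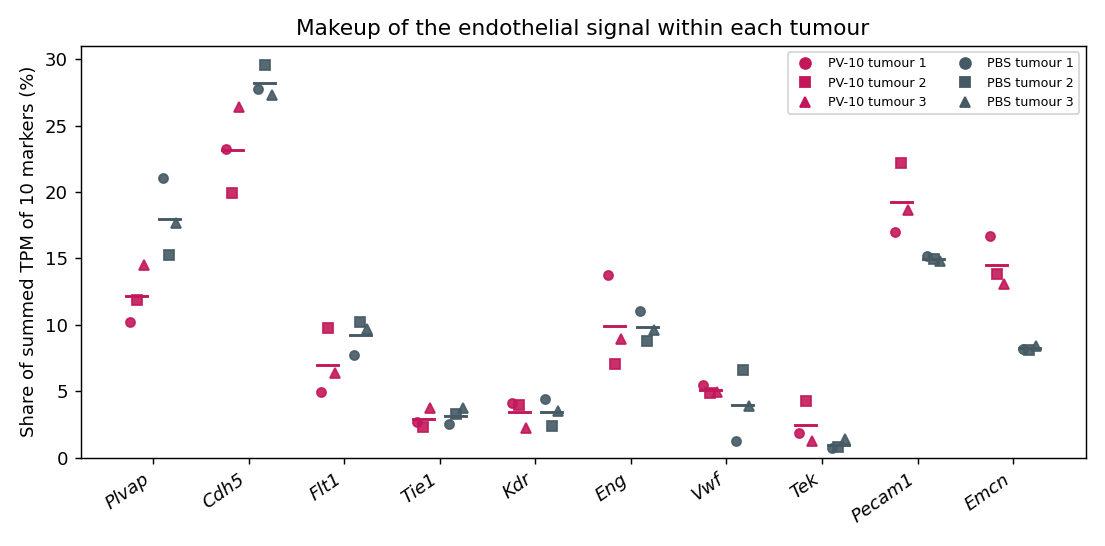
Share of the summed TPM of the 10 markers taken by each marker, in percent, in each tumour, with PV-10 tumours left of PBS tumours and short lines for means. Plvap and Cdh5 at the left were lower in every PV-10 tumour, and Pecam1 and Emcn at the right were higher in every PV-10 tumour.

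Plvap and Emcn have similar effective lengths, that of Plvap being 1.23 times that of Emcn. The ratio of Plvap to Emcn in TPM was 0.614, 0.862 and 1.11 in PV-10 tumours and 2.56, 1.89 and 2.10 in PBS tumours, with no overlap (exact two-sided permutation p = 0.1, adjusted over 4 ratios 0.2). The ratio of Cdh5 to Pecam1 was 1.37, 0.900 and 1.41 in PV-10 tumours and 1.83, 1.97 and 1.85 in PBS tumours, also with no overlap and the same p. The ratio of the VEGF receptors, Flt1 to Kdr, was 1.19, 2.44 and 2.90 in PV-10 tumours and 1.76, 4.24 and 2.74 in PBS tumours, and that of the TIE receptors, Tie1 to Tek, was 1.46, 0.542 and 3.01 in PV-10 tumours and 3.31, 4.24 and 2.71 in PBS tumours. Both receptor ratios overlapped between groups (exact permutation p = 0.5 and 0.2). The pairs were chosen after the values were seen. Shares of Plvap and Cdh5 were lower, and those of Emcn and Pecam1 higher, in every PV-10 tumour. The ratios of Plvap to Emcn and of Cdh5 to Pecam1 therefore could not overlap, and their p-values restate the shares.

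Cells that share these genes were looked at through their own markers. Over 12 macrophage and monocyte markers the summed level ran from 704 to 1147 TPM in PV-10 tumours and from 1008 to 1287 TPM in PBS tumours, and all 12 were above 0 in every tumour. Their median log2 change was -0.02, 7 of the 12 were below 0, and none was called. The highest log2 change in that list was that of its most abundant gene, Lyz2, which was at 355, 414 and 398 TPM in PV-10 tumours and at 337, 353 and 254 TPM in PBS tumours (log2 change 1.11, edgeR adjusted p = 0.0568). The complement gene C1qb was at 166, 176 and 289 TPM in PV-10 tumours and at 296, 258 and 262 TPM in PBS tumours (log2 change 0.38, edgeR adjusted p = 0.392). Of 10 platelet markers, summed at 131 to 163 TPM in PV-10 tumours and 116 to 203 TPM in PBS tumours, Pf4 gave most, a gene that macrophages also express. Itga2b was at 1.33, 1.04 and 1.99 TPM in PV-10 tumours and at 0.88, 4.43 and 0.85 TPM in PBS tumours. Its groups overlapped (log2 change 0.29, edgeR adjusted p = 0.752). The platelet glycoprotein gene Gp9, chosen after its values were seen, was at 0.19, 0.43 and 0.08 TPM in PV-10 tumours and at 0, 0.06 and 0 TPM in PBS tumours, and Gp1ba, Gp1bb, Gp5, Gp6, Treml1 and Clec1b were also at 0 in some tumour. The 7 red cell markers summed to at most 10.2 TPM in PV-10 tumours and 11.4 TPM in PBS tumours. Among them Hba-a2 was at 5.56, 4.78 and 7.57 TPM in PV-10 tumours and at 9.4, 4.05 and 7.37 TPM in PBS tumours (log2 change 0.54, edgeR adjusted p = 0.468). Hbb-bt was at 2.25, 1.76 and 0.55 TPM in PV-10 tumours and at 0, 0.31 and 0.52 TPM in PBS tumours (log2 change 3.49, edgeR adjusted p = 0.160). The part of these cells in the shares of Pecam1, Eng and Vwf was not tested.

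Of 25 other endothelial identity genes, all above 0 in every tumour, none was called, 13 had a negative and 12 a positive log2 change, and the median was -0.06. Podxl, the sialomucin podocalyxin, was at 2.76, 3.90 and 13.3 TPM in PV-10 tumours and at 20.4, 21.2 and 20.3 TPM in PBS tumours (log2 change -0.96, edgeR adjusted p = 0.166), without overlap. With the length trend removed its log2 change was -0.26 (edgeR adjusted p = 0.574). Among PBS tumours Podxl differed 1.05-fold in TPM, where the summed level of the markers differed 2.89-fold. Fli1, an ETS transcription factor gene also active in leukocytes, had a log2 change of 0.10 (edgeR adjusted p = 0.821). Ecscr, a regulator of endothelial migration chosen here after its values were seen, was at 9.50, 5.57 and 9.14 TPM in PV-10 tumours and at 2.00, 7.76 and 8.16 TPM in PBS tumours, with a log2 change of 1.36 (edgeR adjusted p = 0.104).

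Among 12 vascular ligand genes none was called and the median log2 change was -0.37. With the length trend removed the median was 0.01. Vegfa, the ligand of Kdr and Flt1, was at 8.14, 17.6 and 38.0 TPM in PV-10 tumours and at 48.7, 106 and 68.0 TPM in PBS tumours. Every PV-10 tumour was below every PBS tumour, and the log2 change was -1.09 (SE 0.38, edgeR adjusted p = 0.0914). Vegfb, which binds Flt1 but not Kdr, was at 5.49, 7.06 and 22.7 TPM in PV-10 tumours and at 24.8, 33.0 and 27.9 TPM in PBS tumours (log2 change -0.60, edgeR adjusted p = 0.327). The groups of Vegfb did not overlap in TPM, while in CPM PV-10 tumour 3 was the highest of the 6 tumours, at 39.7 CPM against 33.9 to 36.8 CPM in PBS tumours.

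In the 12 vascular and other cell type lists beside the markers, 3 of 129 tested genes were called, all lower. Of all tested genes 1.92% were called lower. Among 12 other vascular receptor genes 1 was called lower, the VEGF and semaphorin co-receptor gene Nrp2. It was at 5.36, 5.93 and 13.6 TPM in PV-10 tumours and at 28.2, 51.5 and 34.7 TPM in PBS tumours (log2 change -1.47, SE 0.31, edgeR adjusted p = 0.0443). Over 13 tip cell and Notch genes the median log2 change was -1.02, or -0.55 with the length trend removed. Of the 13 genes 12 had log2 changes below 0, as did 41.5% of all tested genes, and 1 was called lower. This was Unc5b, a netrin receptor of sprouting endothelium, at 2.29, 2.54 and 9.26 TPM in PV-10 tumours and 17.1, 37.7 and 38.7 TPM in PBS tumours (log2 change -1.96, SE 0.44, edgeR adjusted p = 0.0451).

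Of 10 tested genes of arterial, venous and capillary identity 1 was called lower, where 1.92% of all tested genes were called lower. This was Nr2f2, the venous transcription factor COUP-TFII. It was at 9.53, 8.82 and 23.0 TPM in PV-10 tumours and at 49.0, 53.4 and 63.2 TPM in PBS tumours (log2 change -1.28, SE 0.30, edgeR adjusted p = 0.0470). Nrp2, Unc5b and Nr2f2 are also expressed outside endothelium, and their part in endothelial cells was not measured. With PV-10 tumour 3 left out all 3 passed the edgeR test. With any other tumour left out none of the 3 passed, in fits where edgeR called 1 to 5 genes in all. Over the 6 fits with a tumour left out the log2 change ran from -1.75 to -1.33 for Nrp2, from -2.57 to -1.68 for Unc5b and from -1.58 to -1.13 for Nr2f2. With the length trend removed Unc5b (-1.25, adjusted p = 0.0482) and Nr2f2 (-0.87, adjusted p = 0.0482) passed the edgeR test and Nrp2 (-0.58, adjusted p = 0.0847) did not.

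Of 12 genes of the mural cells that wrap vessels none was called, 7 had a negative log2 change and the median was -0.49. With the length trend removed the median was 0.24. Acta2, smooth muscle actin, also made by activated fibroblasts, was at 82.0, 67.2 and 103 TPM in PV-10 tumours and at 300, 208 and 133 TPM in PBS tumours (log2 change -0.62, edgeR adjusted p = 0.308). Tagln, the actin-binding transgelin, was at 31.5, 15.2 and 8.61 TPM in PV-10 tumours and at 5.25, 11.6 and 7.87 TPM in PBS tumours (log2 change 2.14, edgeR adjusted p = 0.0501). Of 11 genes of haemostasis and nitric oxide none was called (median -0.22, or 0.22 with the length trend removed). The plasminogen activator gene Plat and the endothelin-converting enzyme gene Ece1 had log2 changes of -0.11 and -0.82.

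**Figure D4:**
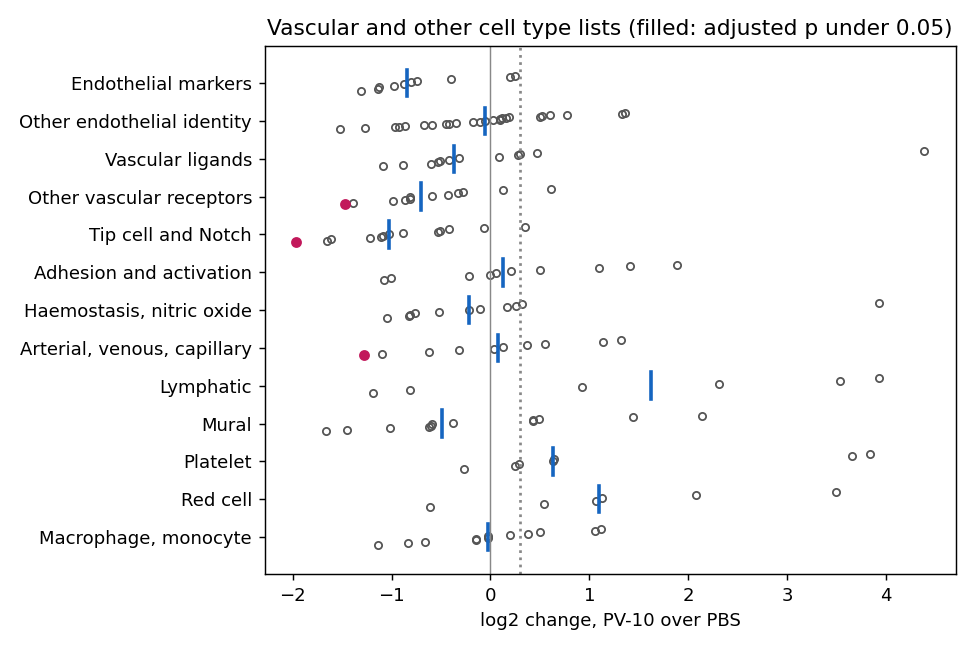
The log2 change, PV-10 over PBS, of each tested gene in the vascular and other cell type lists, with blue bars for list medians and a dotted line for the median of all tested genes, 0.30. Filled points passed the edgeR test at an adjusted p under 0.05; they are Nrp2, Unc5b and Nr2f2, all lower in PV-10 tumours.

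The genes whose log2 CPM followed the mean standardised profile of the 10 markers most closely over the 6 tumours were Atxn7l3 (Pearson r 1.00), Mcam (0.995), Ptpn4 (0.995), Mllt3 (0.993), Usb1 (0.993) and Adamts1 (0.993). They were taken from the 10845 genes averaging at least 5 CPM. These r describe 6 tumours that fall into unequal levels, and no test was made of them. Mcam, the adhesion molecule CD146 of endothelial and mural cells, was at 4.01, 3.81 and 12.8 TPM in PV-10 tumours and at 8.80, 25.0 and 20.8 TPM in PBS tumours. It was low in PV-10 tumours 1 and 2, intermediate in PBS tumour 1 and PV-10 tumour 3, and high in PBS tumours 2 and 3. The sum of the markers had the same pattern, which follows from picking Mcam by its likeness to their profile.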

How the data were processed

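Per the labels' protocols, RNA of 6 tumours was treated with DNase, and 100 ng each went into strand-specific libraries sequenced as pairs of 100-base reads. Per the submitters' processing notes and protocols, adapters were found with BBMerge 37.02 and removed with cutadapt 1.8.1, and reads were aligned to mm10 with STAR 2.7.7a and quantified with RSEM 1.3.0 on Gencode M21. The deposited counts are whole numbers per gene, not normalized, and the deposited TPM values are scaled for transcript length to the same total in each library. RSEM shares reads among similar genes.

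PV-10 was compared with PBS by edgeR 4.0.16 (R 4.3.3; quasi-likelihood F test, robust, default expression filter, TMM scaling) on the counts, with Benjamini-Hochberg adjustment over 22056 genes and a threshold of 0.05. CPM are TMM-scaled. Standard errors divide each log2 change by the root of its F statistic, and 95% intervals use the fit's degrees of freedom. Ratios and shares within a tumour were compared by exact permutation tests. Alternatives were scaling by DESeq2 1.42.0 size factors or by total count, the DESeq2 Wald test, leaving genes unfiltered or requiring a mean count of 50, limma 3.58.1 (voom, or log2 of TPM plus 1 or 0.1), removal of each library's trend with effective length (deposited count over TPM, natural spline with 5 degrees of freedom, fitted on genes with a mean log2 CPM of at least 2), a replicate block, and each tumour left out.

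The markers and lists were chosen with earlier results of these data known. Named beside the 10 markers were called genes of each list (up to 4), or else the 2 most abundant, and the 6 genes most like the markers' profile, while the ratios, the epithelial list and a few genes marked in the text were chosen after values were seen. Where a tumour is left out, a group of 2 tumours shares the spread estimated from all 5. Whether every tumour was from a different mouse is not stated in the labels, so p-values measure the spread between these tumours.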

Additional observations from a re-analysis of the deposited data

How the results depend on the processing

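In place of no called marker, the number called lower was 5 with no low-count filter (Flt1, Plvap, Vwf, Cdh5 and Eng), 1 with DESeq2, 3 with limma on log2(TPM + 1) or log2(TPM + 0.1) (Flt1, Plvap and Kdr), and from 0 to 7 with a tumour left out, 7 being without PV-10 tumour 3. DESeq2 size factors, library size alone, a mean count of at least 50, limma-voom and the length trend removed called none, with 3, 3, 1, 5 and 2 markers at an unadjusted p under 0.05. Among all tested genes 7053, 7131, 5946, 6810 and 6467 were under that p, of 22056 tested, or 15787 with a mean count of at least 50. All called genes, 1122 in the main test, numbered 2537 with DESeq2 size factors, 2441 with library size, 4664 with no filter, 2705 with a mean count of at least 50, 5720 with DESeq2, 2016 with limma-voom, 4037 and 3998 with TPM, and 1 to 11399 with a tumour left out. Called genes in the other 12 lists, 3 in the main test, numbered 10, 10, 29, 11, 26, 10, 27 and 26 in these settings and 0 to 43 with a tumour left out. Shares without overlap between groups went from 4 in TPM to 2 in CPM. With a tumour left out they were 4 to 5. That count could not fall below 4, because leaving out a tumour cannot make separate groups overlap. The log2 ratio of the summed level, -1.43, was -0.85 in CPM and -2.40 to -1.07 with a tumour left out.

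Signs turned for Kdr with the length trend removed (0.047), for Tek (-0.26) and Emcn (-0.71) with log2(TPM + 1) and (-0.40 and -0.80) with log2(TPM + 0.1), for Tek (-0.19) and Emcn (-0.03) without PBS tumour 1, and for Emcn (-0.29) without PV-10 tumour 3, and the cause was not tested. With a tumour left out Tek ranged from -0.19 to 0.64 and Emcn from -0.29 to 0.55. With the length trend removed, negative list medians became positive for vascular ligands (0.01), other vascular receptors (0.10), haemostasis (0.22) and mural genes (0.24). The same held for other endothelial identity (0.16) and macrophage and monocyte genes (0.15). The median of arterial, venous and capillary genes became negative (-0.11), and that of tip cell and Notch genes stayed negative (-0.55). The median change of all tested genes was 0.30 with TMM, 0.43 with DESeq2 size factors, 0.21 with library size and -0.21 with log2(TPM + 1), and the split of calls was 699 higher and 423 lower, 1469 and 1068, 980 and 1461, and 251 and 3786 in these settings.

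The titles number the tumours but state no pairing of mice. Same-numbered tumours deviated from their group means with correlations of -0.05, 0.07 and 0.07, and differently numbered tumours with correlations from -0.11 to 0.08. With 3 tumours in each group these values cannot show whether any tumours were paired. With the replicate block the calls were 2 markers (Flt1 and Plvap, both lower), 16 genes of the other lists and 2872 genes in all. Of 22056 tested genes 1818 were called lower with the block.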

Other observations

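Of 7 lymphatic genes 6 were tested and none was called (edgeR), with a median log2 change of 1.62. The median depended on the scale, at 0.06 on log2(TPM + 1), 0.29 on log2(TPM + 0.1) and 2.28 with the length trend removed. An unadjusted p under 0.05 was found for 4 of the 6 and for 30% of all tested genes. The highest was Mmrn1, a multimerin gene, at 0.87, 0.10 and 0.13 TPM in PV-10 tumours and at 0.02, 0.07 and 0.04 TPM in PBS tumours (log2 change 3.93, edgeR adjusted p = 0.0594). Prox1, the transcription factor that defines lymphatic endothelium, was at 0.14, 0.11 and 0.02 TPM in PV-10 tumours and at 0, 0 and 0.09 TPM in PBS tumours. Lyve1, a hyaluronan receptor shared with macrophages, was at 1.06, 1.25 and 1.57 TPM in PV-10 tumours and at 6.08, 3.54 and 3.61 TPM in PBS tumours (log2 change -1.18, edgeR adjusted p = 0.0969), with no overlap. Pdpn, podoplanin, was at 121, 111 and 99.9 TPM in PV-10 tumours and at 84.7, 124 and 119 TPM in PBS tumours, which overlapped, and fibroblasts and tumour cells also make it. Pdpn did not overlap between groups in CPM, with 470, 398 and 247 CPM for PV-10 tumours against 194, 194 and 199 CPM for PBS tumours (log2 change 0.93, edgeR adjusted p = 0.0786).

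Of 11 genes of adhesion and endothelial activation 10 were tested and none was called (edgeR), with a median log2 change of 0.13. An unadjusted p under 0.05 was found for 2 of the 10 and for 30% of all tested genes. Prox1, Mmrn1, Sele and Selp were chosen for naming after their values were seen. Sele and Selp, the selectins of activated endothelium, reached at most 0.43 and 1.71 TPM in any tumour. Vcam1 was at 8, 21.1 and 46.0 TPM in PV-10 tumours and at 54.2, 45.4 and 34.1 TPM in PBS tumours, and the groups overlapped. Cd47, a signal against phagocytosis on many cell types, was at 15.1, 16.1 and 27.4 TPM in PV-10 tumours and at 38.1, 57.8 and 47.2 TPM in PBS tumours (log2 change -1.01, edgeR adjusted p = 0.0812).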
